A study of Homo sapiens with 6 samples.

Results

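The genes of the fatty acid elongation cycle were described in LNCaP, a human prostate cancer cell line that responds to androgen. The set holds the ELOVL elongases ELOVL1, ELOVL2, ELOVL4, ELOVL5, ELOVL6 and ELOVL7 together with HSD17B12, HACD2, HACD3 and TECR, 10 genes named for their place in the cycle. The choice was made with earlier results of these data known. They were read from every array probe set that names one of them and no other gene, which gave 23 of the 41097 single-gene probe sets on the array. These 23 probe sets cover 9 of the 10 genes, out of 19775 genes with such a probe set. ELOVL1 has no value here, because both of its probe sets also name a microRNA gene.

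Before treatment, all cultures spent 3 days without phenol red and in 10% serum that charcoal and dextran had stripped of steroids. Dihydrotestosterone (DHT), the androgen made from testosterone within the prostate, was added at 100 nM for 48 h to 3 of them. The other 3 cultures served as controls, and the sources used here do not give their vehicle. Each culture gave RNA for 1 Affymetrix array, and replicates are labelled as biological. Whether cultures were grown on separate days is not stated, so the p-values measure the spread between these cultures. The cells are a single cancer line, and each array reads a whole culture, so that a change in the share of cells expressing a gene and a change in RNA per cell cannot be told apart.

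Fatty acids longer than the product of fatty acid synthase are made in the endoplasmic reticulum by a cycle that adds a pair of carbons at each turn. An ELOVL enzyme condenses malonyl-CoA with the acyl-CoA, and each ELOVL enzyme prefers certain chain lengths and degrees of unsaturation. The product is reduced by HSD17B12, dehydrated by a HACD enzyme and reduced again by TECR, and these later enzymes serve all of the elongases. The resulting chains enter phospholipids, sphingolipids and cholesterol esters.

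With DHT the condensing enzymes ELOVL7 and ELOVL5 rose most of the set, and their RefSeq promoter windows on GRCh38.p14 are shown for that reason. Each line gives the 250 bases before the annotated start, 5′ to 3′ on the strand of the gene, which is the minus strand for both. The capitals mark matches to the motifs searched. The ELOVL7 window is chr5:60844270-60844519 and the ELOVL5 window is chr6:53348951-53349200.
ELOVL7: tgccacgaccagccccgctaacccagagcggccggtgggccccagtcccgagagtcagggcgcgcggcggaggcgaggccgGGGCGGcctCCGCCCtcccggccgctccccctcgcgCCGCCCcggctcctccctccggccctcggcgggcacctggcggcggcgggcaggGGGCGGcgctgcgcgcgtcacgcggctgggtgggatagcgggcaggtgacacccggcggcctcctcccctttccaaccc
ELOVL5: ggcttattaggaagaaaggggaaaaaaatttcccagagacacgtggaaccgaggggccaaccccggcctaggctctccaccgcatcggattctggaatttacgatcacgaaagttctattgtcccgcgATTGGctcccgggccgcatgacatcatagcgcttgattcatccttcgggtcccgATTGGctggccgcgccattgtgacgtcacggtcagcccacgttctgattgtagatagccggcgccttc

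The motifs were searched on both strands. They were the androgen half-site AGAACA, the full androgen response element that joins AGAACA and TGTTCT over 3 free bases and so contains the half-site, the CCAAT box CCAAT, the GC box GGGCGG and the TATA box TATAAA. The ELOVL7 window held 4 GC boxes and no CCAAT box, and 80.8% of its bases were G or C. The ELOVL5 window held 2 CCAAT boxes, both as ATTGG, and no GC box, with 56.0% G or C against a median of 58.0% over 35116 windows. Promoter windows were matched for 9 of the member genes, 12 windows in all, since HACD2, HACD3 and TECR have 2 each. None of the 12 held either form of the androgen element or the TATA box in these letters. The 2 TECR windows share most of their bases, so most matches in them are the same ones. A GC box occurred in 11 of the 12 windows, or 8 of the 9 genes, that of ELOVL5 being the exception. It occurred in 42.6% of all windows. A CCAAT box occurred in 6 of the 12, in windows of ELOVL1, ELOVL4, ELOVL5, HACD3 and TECR, and in 32.0% of all windows. The half-site was in 12.4% of all windows and the TATA box in 10.7%, while the full androgen element was in 1 window.

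The values are MAS5 signals on a linear scale, and in the deposited file each array has a mean of 100.03 once the top and bottom 2% are set aside. Array medians ranged from 27.9 to 30.1 with DHT and from 25.7 to 30.0 in the controls. Probe sets whose mean log2 signal was among the lowest 40%, below a signal of 17.3, were not tested. Of 9 luminal prostate markers 8 had a single-gene probe set, and all 8 lay above that limit. Their summed signal was 19104 to 19714 on the DHT arrays and 9008 to 9162 on the control arrays, with 4 higher and 2 lower, and this luminal list holds known androgen targets. None of the 3 basal epithelial markers with a probe set reached the limit. The markers of neuroendocrine cells, fibroblasts, leukocytes and endothelium summed to at most 274 on any DHT array and 279 on any control array for each list, and 1 fibroblast marker of them passed, as lower. What these lists contribute to the changes below was not tested. The array controls moved with the groups. For the ACTB control the 3′ probe set over the 5′ one was 1.77 ± 0.07 with DHT and 1.37 ± 0.05 in the controls, and for the GAPDH control it was 1.06 ± 0.05 with DHT and 0.904 ± 0.044 in the controls (SD, n = 3 each). The hybridisation spikes were also brighter on every DHT array than on every control array. An exact two-sided permutation test gave p = 0.1 for each of these, the smallest that 3 against 3 arrays allow. Each change below is thus set against the other transcripts of its array. Scaling to the spikes instead would lower the median change of all tested probe sets to -0.51 on the log2 scale.

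DHT was compared with control to find transcripts that respond to androgen in cells deprived of steroids. ELOVL7 and ELOVL5 rose, HACD3 rose in 1 of its probe sets, and no member fell. Changes were tested on log2(signal + 16), which makes the changes of dim genes look smaller than they are, with limma across all 32768 tested probe sets and a threshold of 0.05 on the Benjamini-Hochberg adjusted p. Of the 23 member probe sets, 18 were tested and 5 lay below the limit on dim signal. Among the 18, 3 rose, 1 each of ELOVL7, ELOVL5 and HACD3, and 0 fell. Of all tested probe sets 10.3% passed, 5.09% as higher and 5.25% as lower. At an unadjusted p under 0.05, limma gave 7 member probe sets as higher and 0 as lower, where 12.0% of all tested probe sets were higher and 11.9% lower. The median change was 0.11 over the tested members and 0.01 over all tested probe sets. The 3 DHT arrays lay all above the 3 control arrays for 7 member probe sets and all below them for 1, where 28.7% of all tested probe sets did not overlap. Because the members were chosen with earlier results known, these shares only describe the set.

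**Figure D1:**
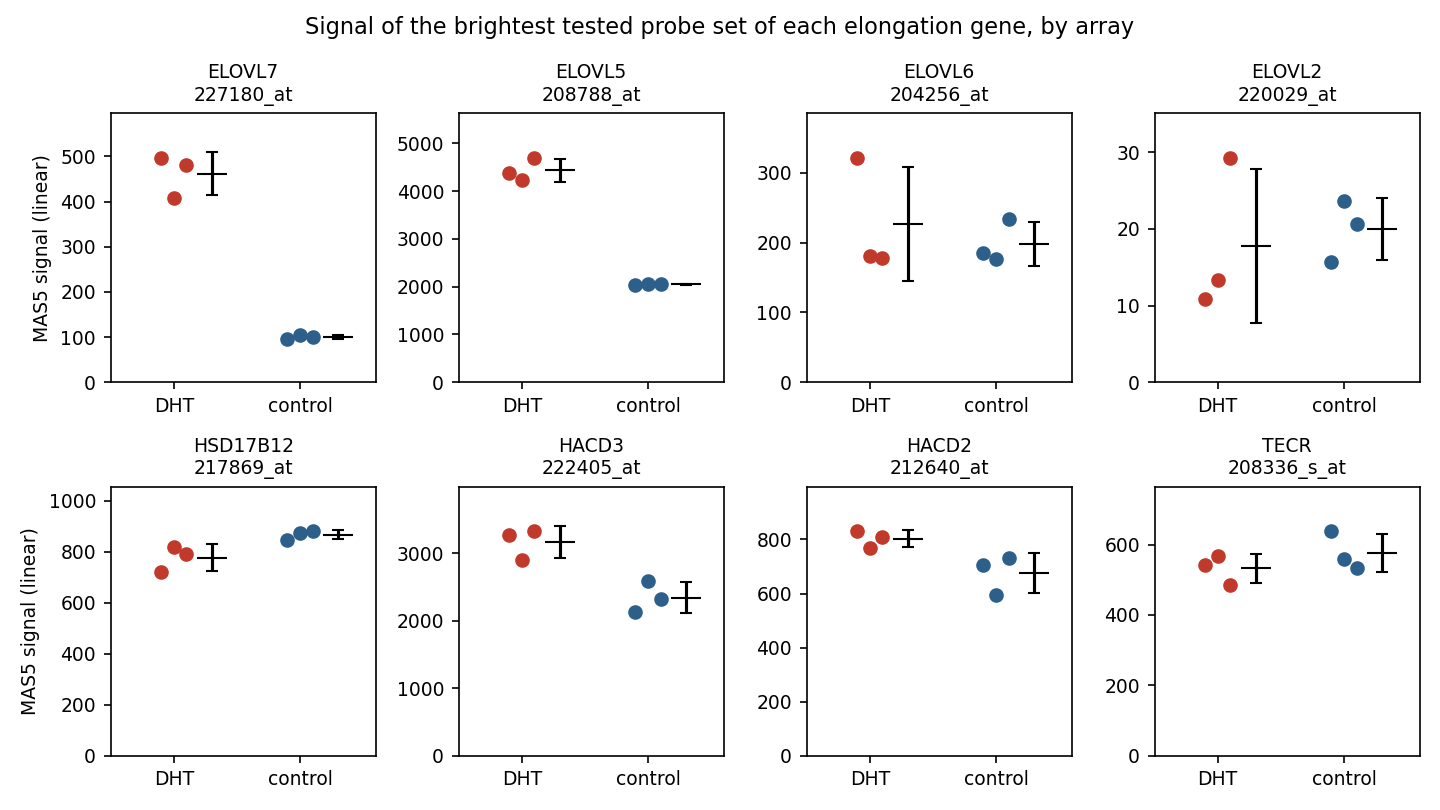
Each panel plots the MAS5 signal (linear scale, axis from 0) of 1 tested probe set per gene, with 1 point per array, DHT on the left and control on the right, and a bar for the mean ± SD of 3 arrays. The probe set is the brightest of the gene, with those ending in _x_at set aside. The DHT points lie clear above the control points for ELOVL7 and ELOVL5, less far for HACD3 and HACD2, below them for HSD17B12, and overlap them for ELOVL6, ELOVL2 and TECR.

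ELOVL7, which extends saturated acyl-CoA in particular, had the largest change of the set. Its only probe set (227180_at) had signals of 497, 407 and 480 on the DHT arrays, against 94.9, 104 and 100.2 on the control arrays. The lowest DHT array was thus far above the highest control array, and the controls lay close together. The mean signal was 461 ± 47.6 with DHT and 99.7 ± 4.62 in the controls (SD, n = 3 each), a 4.63-fold rise. The log2 change was 2.04 ± 0.10 (SE), with a limma adjusted p of 1.04e-06 over probe sets. Among 14269 genes, each read from its brightest probe set, this was the 4th largest rise. Leaving out any 1 array gave a change between 1.99 and 2.12. With spike scaling it was 1.51 and still passed.

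ELOVL5, which extends polyunsaturated acyl-CoA, was read by 4 probe sets. The brightest (208788_at) had signals of 4378, 4228 and 4696 on the DHT arrays, against 2042, 2061 and 2045 on the control arrays. The control arrays lay close together, and every DHT array was far above each of them. The mean was 4434 ± 239 with DHT and 2050 ± 10.3 in the controls (SD, n = 3 each), which is 2.16-fold, and its log2 change was 1.11 ± 0.07 (SE; limma adjusted p = 6.09e-06). It was the 62nd largest rise among the 14269 genes. Leaving out any 1 array gave a change between 1.06 and 1.14. With spike scaling it was 0.58 and still passed.

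The other ELOVL5 probe sets were dimmer and did not pass. Probe set 1567222_x_at had signals of 120, 115 and 143 with DHT, against 87.1, 115 and 90.8 in the controls, with a log2 change of 0.33 and a 95% interval of 0.03 to 0.63 (limma adjusted p = 0.169). Its name ends in _x_at, which marks probe sets prone to cross-hybridisation. Probe set 215082_at had 40.9, 44.7 and 33.0 with DHT, against 2.64, 32.0 and 15.9 in the controls, and its change of 0.86 (limma adjusted p = 0.113) rests on control arrays that spread widely. Without control replicate 2 that change was 1.18 and passed (limma adjusted p = 0.0300). The control signals then left, 2.64 and 15.9, are both below the limit on dim signal, as was the control mean of 16.8. This pass is therefore not reliable evidence for a rise. Probe set 214153_at had 38.6, 21.5 and 14.8 with DHT, against 26.9, 22.9 and 21.0 in the controls, a change of 0.01 with an interval of -0.54 to 0.56. With the mean of its 4 probe sets ELOVL5 rose as a gene by 0.58 (limma adjusted p = 0.0107 over genes). That mean includes 208788_at and 215082_at, so it is not separate evidence for the rise.

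The change of ELOVL7 exceeded that of ELOVL5 by 0.93 on the log2 scale. The difference between the log2 levels of their probe sets 227180_at and 208788_at ran from -3.33 to -3.10 on the DHT arrays and from -4.21 to -4.11 on the control arrays, without overlap. An exact two-sided permutation test gave p = 0.1, the smallest possible here, and 0.117 adjusted over 7 such differences between probe sets, so the difference does not pass. This pair was chosen after its values were seen. The same 7 differences set 208788_at, as the ELOVL5 probe set that passed, against the others of its gene. Its change exceeded that of 1567222_x_at by 0.78 and that of 214153_at by 1.10, without overlap (exact permutation adjusted p = 0.117 for each). It exceeded that of 215082_at by 0.25, with overlap (exact permutation adjusted p = 0.6).

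ELOVL6, which extends the saturated and monounsaturated products of fatty acid synthesis, did not pass in any of 3 probe sets. Probe set 204256_at had signals of 322, 181 and 178 on the DHT arrays, against 185, 176 and 234 on the control arrays (log2 change 0.14 ± 0.19, 95% interval -0.28 to 0.56, limma adjusted p = 0.723). Probe set 210868_s_at had 111, 63.0 and 58.5 with DHT, against 94.7, 90.6 and 96.4 in the controls (-0.27 ± 0.19, interval -0.69 to 0.14, limma adjusted p = 0.432). In both, DHT replicate 1 stood above the other two DHT arrays, at 1.79 and 1.83 times their mean. Without that array the changes were -0.12 and -0.52 (limma adjusted p = 0.650 and 0.0631), so the sign of the first turns on 1 array. With spike scaling 210868_s_at fell by 0.80. The dimmer probe set 227491_at had 39.4, 32.9 and 43.0 with DHT, against 35.2, 44.1 and 24.0 in the controls, and its change was 0.13 with an interval of -0.33 to 0.58.

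The remaining elongases gave little signal. ELOVL2, which extends the longer polyunsaturated chains, had 10.8, 13.3 and 29.3 with DHT, against 15.7, 23.7 and 20.7 in the controls, in its tested probe set (220029_at). The groups overlap, and the log2 change of -0.12 had an interval of -0.70 to 0.45. Its other probe set (213712_at) did not exceed 4.33 with DHT and 7.43 in the controls. ELOVL4, which makes the very longest chains of retina, skin and brain, was below the limit in its only probe set (219532_at), at 9.35, 3.54 and 1.23 with DHT, against 1.03, 3.07 and 4.80 in the controls. Signals this low are not reliable in MAS5, so that no change of ELOVL2 or ELOVL4 was detectable at this signal.

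**Figure D2:**
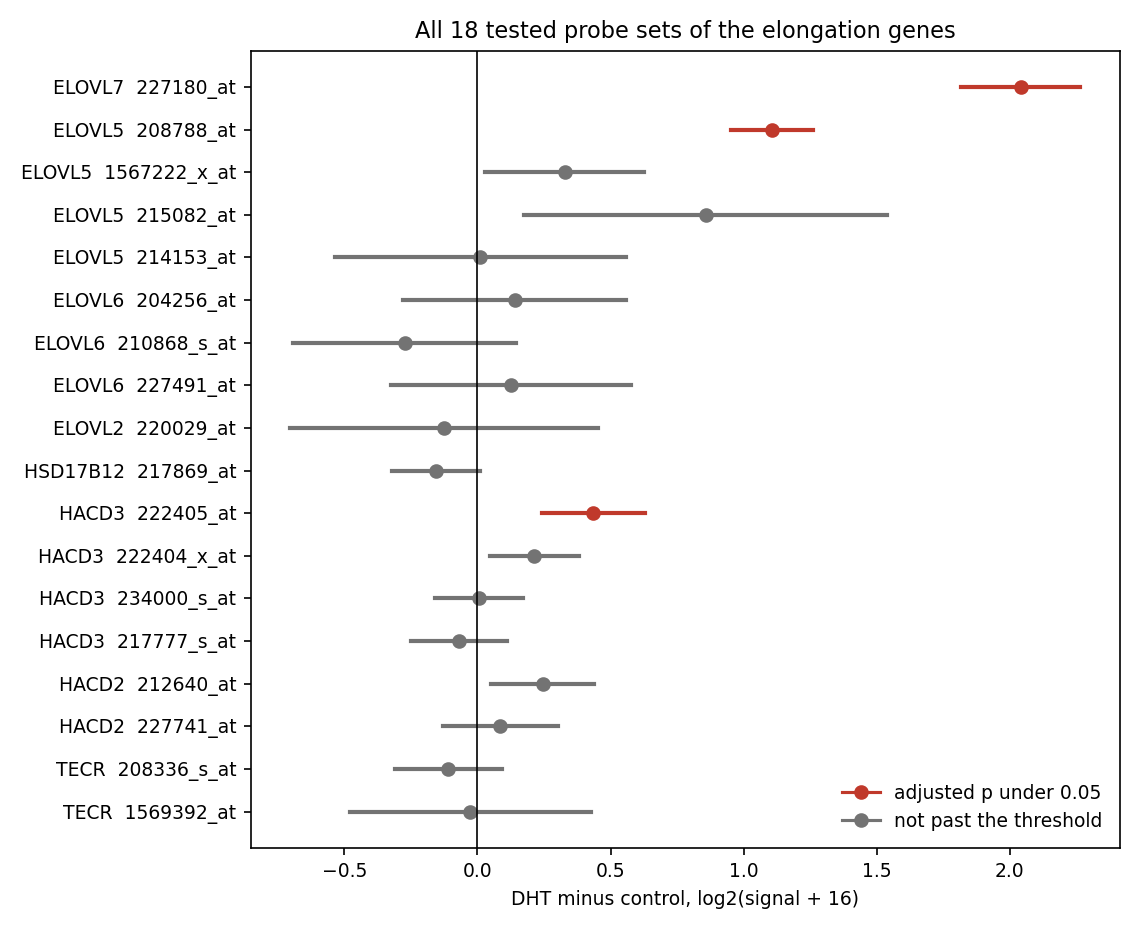
The plot gives the change of each of the 18 tested member probe sets, as DHT minus control on log2(signal + 16), with points for limma's estimate and bars for its 95% interval. The 3 probe sets past the threshold, at 2.04 for ELOVL7, 1.11 for ELOVL5 and 0.43 for HACD3, are in red, and the others are in grey.

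The reductase of the second step, HSD17B12, did not pass. Its bright probe set (217869_at) had signals of 720, 820 and 791 with DHT, against 846, 874 and 880 in the controls. All 3 DHT arrays lay below the controls by a small margin, with a log2 change of -0.16 ± 0.08 (SE), an interval of -0.32 to 0.01 and a limma adjusted p of 0.234. With spike scaling it passed as lower, at -0.68. The other 3 HSD17B12 probe sets were below the limit, with mean signals of 1.65 to 8.57 under DHT and 5.80 to 8.48 in the controls.

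The dehydratase HACD3 was read by 4 bright probe sets, with log2 changes from -0.07 to 0.43. Probe set 222405_at had signals of 3276, 2902 and 3324 with DHT, against 2123, 2582 and 2321 in the controls, and it rose by 0.43 ± 0.09 on the log2 scale (SE; limma adjusted p = 0.00962). Probe set 222404_x_at had 2956, 3001 and 3285 with DHT, against 2550, 2843 and 2569 in the controls, also without overlap, but its change of 0.21 ± 0.08 did not pass (limma adjusted p = 0.108). The other two overlapped between the groups. Probe set 234000_s_at had 2603, 2513 and 2470 with DHT, against 2432, 2752 and 2387 in the controls, with a change of 0.01 and an interval of -0.16 to 0.17. Probe set 217777_s_at had 1127, 1116 and 1171 with DHT, against 1073, 1215 and 1306 in the controls, with a change of -0.07 and an interval of -0.25 to 0.11.

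The change of the HACD3 probe set 222405_at exceeded those of the other 3 by 0.22, 0.43 and 0.50. The differences of log2 level did not overlap between the groups in any of these 3 pairs. Probe set 222405_at was set against the others because it had passed, so some separation is built into the choice. The exact permutation p was 0.1 for each, with an adjusted p of 0.117. With 3 arrays in each group this p cannot be smaller than 0.1, so the test cannot decide these differences. With the mean of the 4 probe sets the HACD3 change was 0.15 and did not pass (limma adjusted p = 0.242 over genes). Without limma's intensity trend 222405_at did not pass either (adjusted p = 0.0964), and with spike scaling its change was -0.09. The 3′ to 5′ ratio of ACTB moved with the same groups, as given above, and its part in the differences between probe sets was not tested. Where on the HACD3 transcript each probe set lies was not analysed here.

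**Figure D3:**
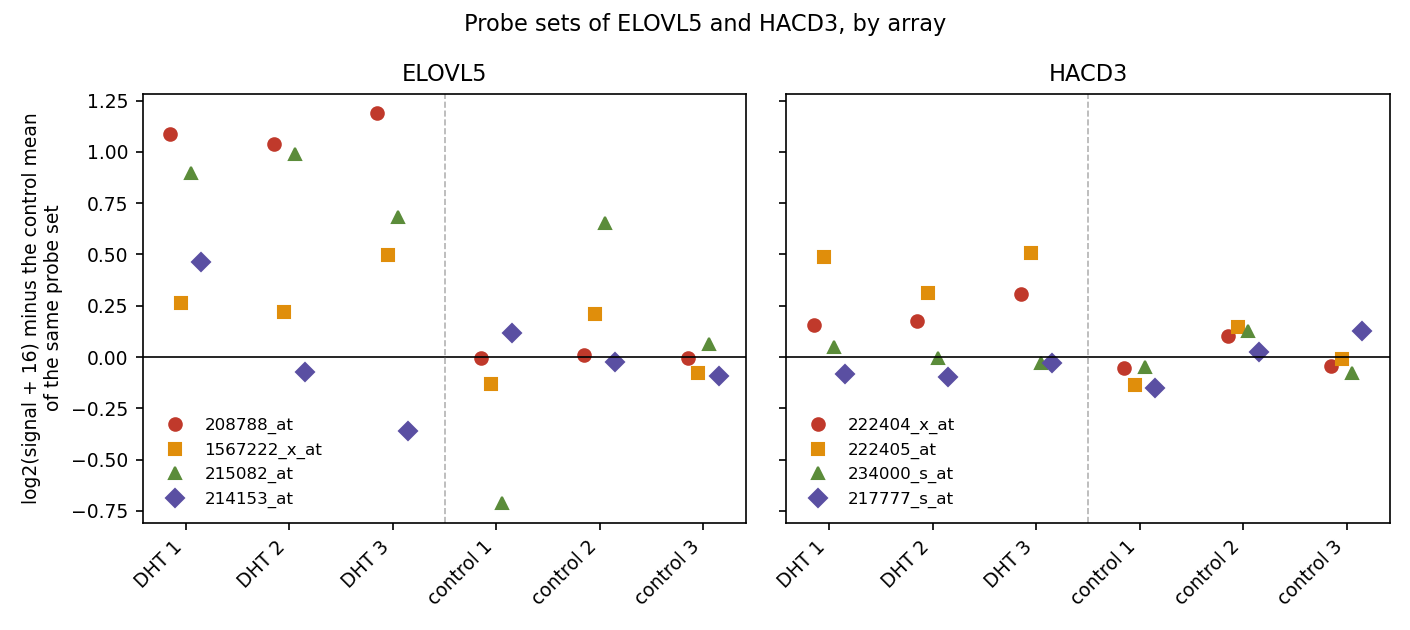
The panels plot log2(signal + 16) of each of the 4 ELOVL5 and 4 HACD3 probe sets, minus the control mean of the same probe set, with 1 symbol per probe set and the 3 DHT arrays left of the 3 control arrays. For ELOVL5 the points of 208788_at lie together near 1.11 with DHT and near 0 in the controls, while those of 214153_at overlap between the groups. For HACD3 the points of 222405_at lie highest with DHT, and those of 234000_s_at and 217777_s_at stay around 0.

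HACD2, a dehydratase of the same step, did not pass in either of its 2 probe sets. Probe set 212640_at had 830, 768 and 809 with DHT, against 706, 593 and 732 in the controls. The DHT arrays were all higher, and the change of 0.24 ± 0.09 had an interval of 0.05 to 0.44 and a limma adjusted p of 0.112. Probe set 227741_at had 410, 344 and 348 with DHT, against 344, 316 and 374 in the controls, with a change of 0.09 and an interval of -0.13 to 0.30.

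TECR, the enoyl-CoA reductase that closes the cycle, overlapped between the groups in both probe sets. The brighter (208336_s_at) had 543, 568 and 486 with DHT, against 637, 558 and 533 in the controls, and its change was -0.11 with an interval of -0.31 to 0.09 (limma adjusted p = 0.522). The dimmer (1569392_at) had 23.0, 30.8 and 38.6 with DHT, against 29.2, 28.5 and 36.5 in the controls, with a change of -0.03 and an interval of -0.48 to 0.43. With spike scaling both passed as lower, at -0.64 and -0.55. Read as genes, 3 of the 8 tested members rose and 0 fell. Of all 14269 tested genes 12.9% passed, with 6.95% higher and 5.91% lower. The members that rose were 2 elongases and 1 dehydratase, and the tested reductases HSD17B12 and TECR were not among them. The intervals of the bright probe sets of HSD17B12 and TECR reach down to -0.32 and -0.31, so smaller falls are within them.

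The genes whose pattern over the 6 arrays was most like that of ELOVL7 were KLK3, PMEPA1 and TRPM8. Likeness was the distance between the log2 values of 2 genes over the 6 arrays, each gene centred on its own mean, and it follows mainly the size of the change. KLK3, which encodes prostate-specific antigen, lay at a distance of 0.31. PMEPA1, which restrains TGF-beta signalling, lay at 0.43 and the cold-sensing channel TRPM8 at 0.51, against a median of 2.52 over all genes. The log2 changes of KLK3, PMEPA1 and TRPM8 were 2.04, 1.88 and 1.94. TRPM8 averaged 94.5 with DHT and 12.8 in the controls, the latter below the limit on dim signal. Its ratio of mean signals was 7.38, against 4.63 for ELOVL7, and the added 16 makes its change look smaller. Likeness with another pseudocount was not tested. For ELOVL5 the nearest were the Notch ligand JAG1 at 0.09, C1orf116 at 0.11 and the transcriptional coregulator ZMIZ1 at 0.12, against a median of 1.40. Their own log2 changes were 1.09, 1.12 and 1.06.

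The genes around the cycle were read from 7 lists with 61 entries, of which 46 were tested. Among these 46, 6 rose and 3 fell, where 6.95% of all tested genes were higher and 5.91% lower at the same threshold. At an unadjusted p under 0.05 limma gave 14 as higher and 5 as lower, where 13.8% of all tested genes were higher and 12.1% lower. Beside the brightest probe set of each gene, 5 of the genes had a further probe set past the threshold, which for ABCD3 went the other way. With spike scaling CERS6 was the 1 gene still higher while 27 were lower. Of 8 tested genes of fatty acid synthesis, ACACA rose while SLC25A1 and ME1 fell, and the median log2 change was -0.08. ACACA, the carboxylase that makes the malonyl-CoA used at every turn of the cycle, had 1334, 1194 and 1262 with DHT, against 707, 767 and 778 in the controls (0.74 ± 0.08, limma adjusted p = 0.000127 over genes). SLC25A1, which exports citrate from mitochondria, had 482, 420 and 401 with DHT, against 680, 629 and 734 in the controls (-0.63 ± 0.09, limma adjusted p = 0.00117). The NADPH-producing malic enzyme ME1 fell by 0.43 on the log2 scale, and a further ME1 probe set fell by 0.52. ACLY, which makes cytosolic acetyl-CoA, had 0.19 and did not pass (limma adjusted p = 0.113). Fatty acid synthase FASN had -0.26 and did not pass (limma adjusted p = 0.252), but without DHT replicate 1 it fell by 0.44 (limma adjusted p = 0.0198).

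Among 6 tested desaturase genes, which with their cytochrome b5 partners place double bonds in the same chains, SCD rose and FADS2 fell. SCD, the stearoyl-CoA desaturase, had 2358, 2153 and 1959 with DHT, against 1534, 1598 and 1346 in the controls, a log2 change of 0.53 ± 0.09 (limma adjusted p = 0.00318 over genes). FADS2, which works in turn with ELOVL5 on polyunsaturated chains, had 892, 684 and 589 with DHT, against 1315, 1032 and 1092 in the controls (-0.67 ± 0.14, limma adjusted p = 0.0082). ELOVL5 and FADS2 thus moved in opposite directions. CYB5A and SCD5 had 0.20 and -0.21 and did not pass, though CYB5A did in a further probe set (209366_x_at, 0.37, limma adjusted p = 0.0165) and with the mean of its probe sets (0.25, limma adjusted p = 0.0489).

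Of 10 tested acyl-CoA synthetases, which activate fatty acids for elongation, SLC27A2 rose and 0 fell, with a median of 0.18. SLC27A2, an activator of very long chain fatty acids, averaged 304 ± 21.6 with DHT and 214 ± 4.50 in the controls (SD, n = 3 each; log2 change 0.48). The next by p were ACSL1 (0.16), ACSBG2 (0.67) and SLC27A4 (0.29), none of which passed. ACSBG2 was dim and overlapped between the groups, with 25.1, 75.4 and 51.2 with DHT, against 33.6, 19.2 and 20.1 in the controls. Without DHT replicate 1 it rose by 0.98 (limma adjusted p = 0.0352). Without DHT replicate 2 its change was 0.40 (limma adjusted p = 0.448), and leaving out any other array gave no pass either. Among 5 tested ceramide synthases, which attach long and very long acyl chains to sphingoid bases, CERS6 rose. It had 1141, 1282 and 1231 with DHT, against 628, 619 and 759 in the controls (0.85 ± 0.09, limma adjusted p = 0.000172 over genes), and a further CERS6 probe set of 4 also passed, at 0.48. CERS6 prefers shorter chains than CERS2, whose change was 0.04. CERS4 (-0.27, lower at an unadjusted p under 0.05), CERS5 (0.13) and CERS3 (-0.15) did not pass.

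Of 8 tested genes of peroxisomal breakdown of very long chains, HSD17B4 rose and 0 fell as read from the brightest probe set, with a median of 0.11 and 0 lower at an unadjusted p under 0.05. HSD17B4, the multifunctional enzyme of the peroxisomal cycle, averaged 1789 ± 92.2 with DHT and 1241 ± 29.2 in the controls (SD, n = 3 each; log2 change 0.52). ACBD5, ABCD3 and ACOX2 had 0.15, 0.11 and 0.32 and did not pass. For ABCD3, a transporter of acyl-CoA into the peroxisome, a dimmer probe set (1554878_a_at) averaged 168 with DHT and 231 in the controls and fell by 0.42 (limma adjusted p = 0.0138), and the mean of its probe sets was -0.16, so its direction depends on the probe set. Among 9 tested genes of lipogenic transcription control, INSIG1, which holds SCAP back from the Golgi, rose by 0.63 and 0 fell. INSIG2 was lower at an unadjusted p under 0.05. A further INSIG1 probe set rose by 0.93, but the dimmest tested one averaged 325 with DHT and 311 in the controls, with overlap. The change of that dimmest one was 0.05 and did not pass (limma adjusted p = 0.844 over probe sets). With the mean of its probe sets INSIG1 rose by 0.54 (limma adjusted p = 0.0117 over genes). SCAP (0.24), MBTPS2 (0.21) and INSIG2 (-0.22) did not pass, nor did SREBF1 (0.13). SCAP lay close to the threshold and passed with the lowest 60% left out (limma adjusted p = 0.0428). It also passed in the fit of probe set means (limma adjusted p = 0.0423), which for SCAP reads the same single probe set.

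**Figure D4:**
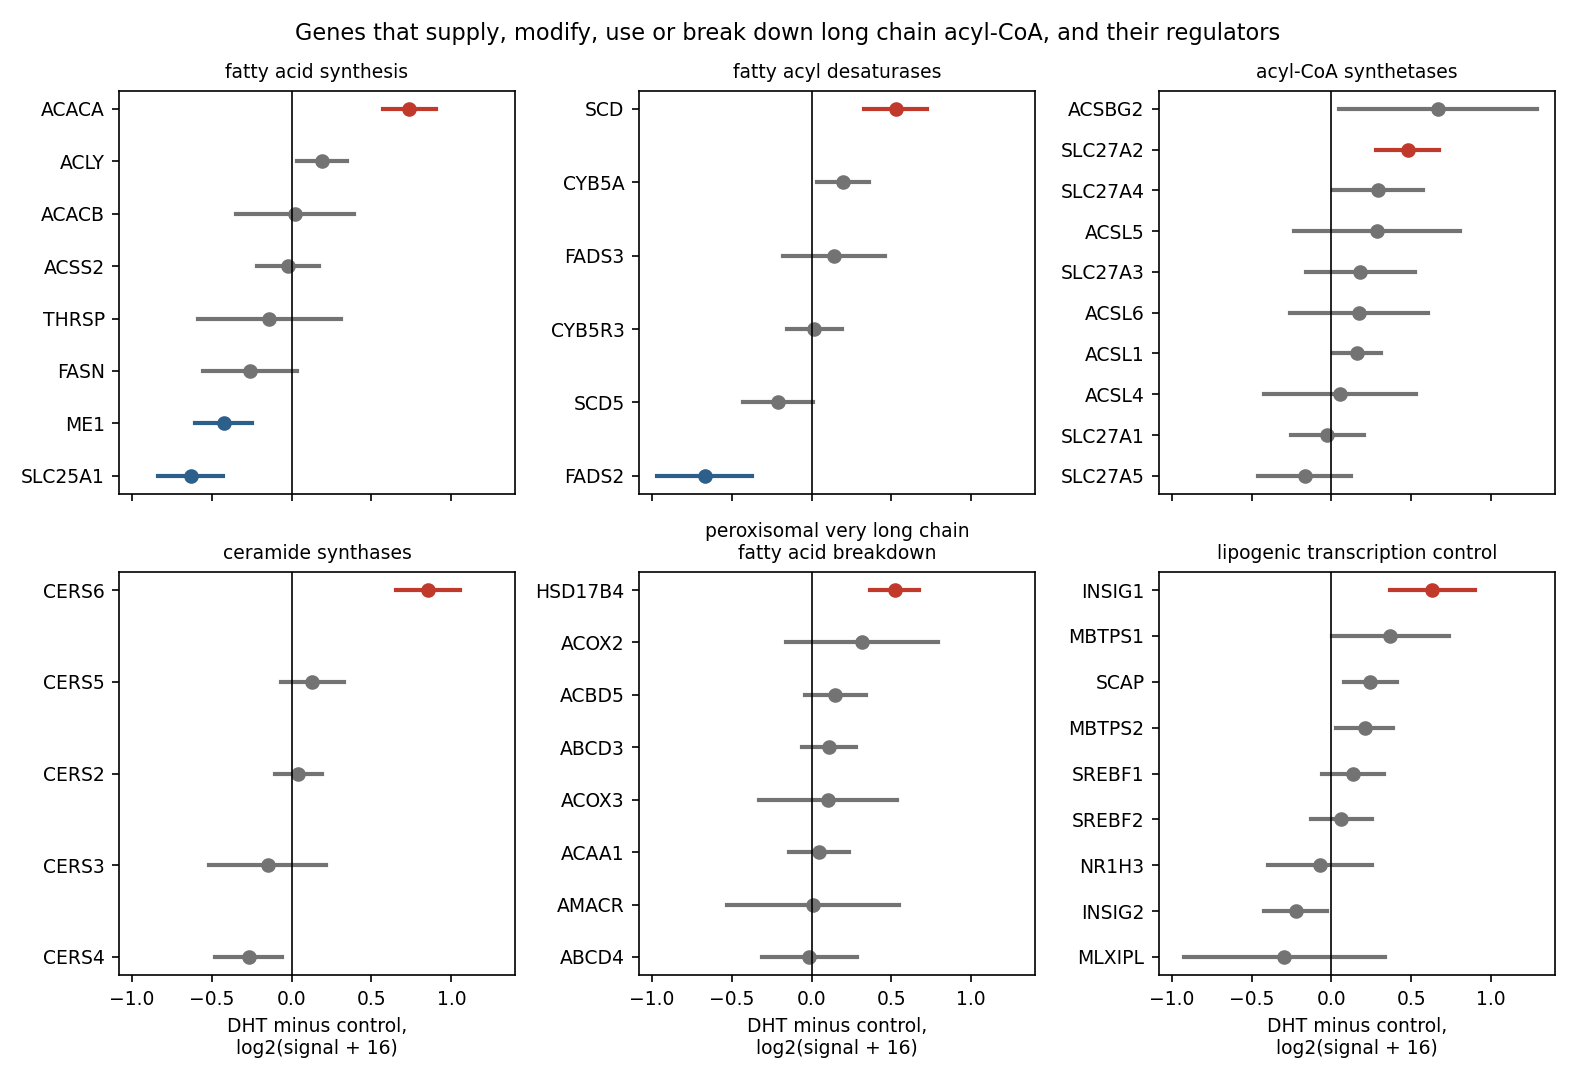
Each panel plots 1 of 6 lists, with the change of every tested gene as DHT minus control on log2(signal + 16), points for limma's estimate and bars for its 95% interval. Genes past the threshold are red where higher with DHT (ACACA, SCD, SLC27A2, CERS6, HSD17B4 and INSIG1) and blue where lower (SLC25A1, ME1 and FADS2), and the remaining 37 are grey.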

How the data were processed

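Total RNA of 6 LNCaP cultures was labelled with biotin and hybridised to 1-colour arrays (labels' protocols). The values deposited by the authors are linear intensities. The submitters' processing notes name MAS5 for them (version not given in the sources used here). The arrays already shared a trimmed mean, and no further normalisation was applied. Samples were grouped by title, and the number of arrays limits the precision.

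Of 54675 probe sets, 62 array controls were left out. In the platform annotation 41097 name 1 gene, 1801 several and 11777 are unnamed here. Gene identifiers of 41043 matched a table of assembly GRCh38.p14, which also gave the promoter windows, and 0 symbols changed. The deposited table names no build, so no probe coordinates are given. Values were taken as log2 of the deposited signal + 16 and fitted with limma 3.58.1 in R 4.3.3 (eBayes with an intensity trend), checked on simulated data. The check called 37.3% of simulated log2 changes of 0.5 and 91.0% of those of 1, and 9 of its 161 calls were false. It changed far fewer probe sets than passed in the data. Small changes can thus be missed. A gene was read from its brightest tested single-gene probe set, with _x_at only where no other passed, and p-values were adjusted over genes. Exact permutation tests used scipy 1.17.1 in Python 3.11.15.

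The named genes are all members, from each related list the 4 tested genes with the smallest p, and the 3 genes nearest to each of the 2 members with the largest change. FASN, CERS2, SREBF1, ELOVL3, HACD4 and ACSBG1 were chosen after their values were seen. The members and lists were chosen with earlier results of these data known. The alternatives were pseudocounts of 1 and 64, no dim limit or one at 60%, quantile, median and spike scaling, a replicate block, no trend, a robust fit, averaging all probe sets of a gene, and each array left out in turn. The search for 1 further motif is not reported here. Deviations of arrays with the same replicate number correlated at r = -0.01, -0.03 and 0.00, so no shared deviation was seen. This cannot show whether the cultures were paired, and the main fit treats them as unpaired.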

Additional observations from a re-analysis of the deposited data

How the results depend on the processing

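ELOVL7 and ELOVL5 (208788_at) kept their rise under every alternative run, at 1.51 to 2.19 and 0.58 to 1.14. The number of member probe sets that rose was 3 to 4 when each array was left out, and 0 fell. Scaling each array to its hybridisation spikes moved most values: 202 of all probe sets were then higher and 18663 lower (1.07% of the calls higher, against 49.3%), 8 member probe sets and 2 member genes were lower, and 1 gene of the related lists was higher and 27 lower. Under it the sign turned for HACD2 227741_at (-0.44), the HACD3 probe sets 222404_x_at (-0.31), 222405_at (-0.093) and 234000_s_at (-0.52), ACLY (-0.34), SCD (-0.0017), CYB5A (-0.33), ACSL1 (-0.37), SLC27A2 (-0.051), CERS5 (-0.40), ABCD3 (-0.42), ACBD5 (-0.38) and HSD17B4 (-0.0067). It also turned, with no call in either, for HACD2 212640_at (-0.28), ELOVL6 204256_at (-0.39) and 227491_at (-0.40), ELOVL5 1567222_x_at (-0.20) and 214153_at (-0.52), SCAP (-0.28), MBTPS2 (-0.32), SLC27A4 (-0.24) and ACOX2 (-0.21). ACACA (0.21) and INSIG1 (0.10) kept their sign and did not pass. Without limma's intensity trend 661 probe sets were higher and 603 lower, 1 related gene was lower, and HACD3, ME1, SCD, FADS2 and INSIG1 no longer passed. The cause was not tested. Leaving out each array gave 1033 to 1379 probe sets higher and 977 to 1316 lower. With the replicate number as a block 1510 probe sets were higher and 1604 lower, and the same 3 member probe sets passed. Low signal limits ELOVL2, ELOVL4 and the dim probe sets of ELOVL5 and HSD17B12.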

Other observations

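Of 4 further genes of the cycle's families, ELOVL3, HACD4 and TECRL were read and lay below the limit on dim signal, and HACD1 was not analysed here. ELOVL3, an elongase of saturated chains known in mouse from brown fat and skin, had signals of 11.2, 9.76 and 17.4 on the DHT arrays, against 2.05, 2.85 and 2.16 on the control arrays. Its DHT arrays lay above all controls although at signals where MAS5 is noisy. With no limit on dim signal its log2 change was 0.64 ± 0.15 (SE; limma adjusted p = 0.0486 over probe sets). HACD4 had 18.4, 22.6 and 5.43 with DHT, against 1.99, 8.96 and 7.30 in the controls, with overlap. ACSBG1, an acyl-CoA synthetase of brain and gonads, had 7.16, 2.74 and 4.50 with DHT, against 9.22, 14.2 and 15.8 in the controls, and did not pass with no limit on dim signal (log2 change -0.48, limma adjusted p = 0.185).

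DHT replicate 1 stood high in 2 of the 3 ELOVL6 probe sets, with a ratio of 1.04 to the mean of the other two DHT arrays in 227491_at, and in some genes of lipid synthesis. Fatty acid synthase FASN had 2330, 1734 and 1467 on the DHT arrays, against 2031, 2262 and 2230 on the control arrays, so that its first DHT array was 1.46 times the mean of the other two. The same ratio was 1.40 for FADS2, 1.32 for INSIG1, 1.18 for SLC25A1 and 1.15 for SCD. That array was the highest of the 3 DHT arrays for 6 of 8 tested genes of fatty acid synthesis, for 4 of 6 desaturase genes, for 6 of 10 acyl-CoA synthetases, for 4 of 9 genes of lipogenic control, for 2 of 8 of peroxisomal breakdown and for 1 of 5 ceramide synthases. It was the highest for 7 of the 18 tested member probe sets, and for 33.7% of all tested genes. These genes were picked after their values were seen, and no test was made.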
